A study of Mus musculus with 11 samples.

Results

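The receptor chains of the common gamma chain cytokines and 3 of their feedback inhibitors were followed across 11 mouse RNA-seq libraries. The libraries are labelled as MC38 tumours or as T cells from such tumours, and are called tumour and sorted libraries below. The 10 genes, of 55487 in the table, were chosen by name: the chains Il2rg, Il2rb, Il2ra, Il15ra, Il4ra, Il7r and Il21r and the inhibitors Cish, Socs1 and Socs3. The choice was made with earlier results of all 4 groups in view, so the fold changes and p-values below are a description and not independent evidence. MC38 is a mouse colon carcinoma line, here with the control hairpin shNC (a short hairpin RNA; genotype labelled WT) or with one that targets Fgf21 (shFgf21). T cells from shNC tumours gave 3 libraries and those from shFgf21 tumours gave 2, while the libraries labelled as tumour gave 3 of each kind (titles number them 1, 2 and 6 for shNC and 1, 2 and 3 for shFgf21). The labels of the latter give the tissue as tumour, the line as MC38 and the cell type as mesenchymal. They do not say whether whole tumours, sorted tumour cells or cultured tumour cells were used. The stated question was the effect of tumour FGF21 on CD8+ T cells. The sorting marker, the mouse strain and age and the number of hairpins are not given here. The titles of the shNC sorted libraries each string together 3 numbers and those of the shFgf21 sorted libraries 2, so a library may pool animals. The count of numbers joined thus cannot be told apart from the knockdown. The title of shNC sorted replicate 3 begins with NC, and those of replicates 1 and 2 with N. Some of these numbers recur in tumour titles, and whether sorted and tumour libraries share animals is not stated. The genotype label of shFgf21 sorted replicate 2 names FGF22, and it was grouped by its title. Whether replicates were separate animals is not stated, and the p-values therefore reflect library-to-library spread only, part of which may be technical.

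Interleukins 2, 4, 7, 9, 15 and 21 all signal through receptors that contain the common gamma chain, encoded by Il2rg, beside a chain that is specific to the ligand or shared by IL-2 and IL-15 (Il2rb). The gamma chain binds the kinase JAK3 and its partner chains bind JAK1. These kinases activate STAT5 above all downstream of IL-2, IL-7 and IL-15, STAT6 downstream of IL-4 and STAT3 downstream of IL-21. STATs switch on Cish, Socs1 and Socs3, whose SH2 domain proteins dampen the same receptors. In T cells IL-7 signalling keeps naive and memory cells alive, IL-2 and IL-15 drive effector and memory cells, and IL-2 signalling lowers Il7r. Macrophages use the gamma chain with IL-4 receptor alpha, and type II IL-4 receptors, which are not confined to immune cells, use IL-13 receptor alpha 1 in place of the gamma chain.

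Total counts were 14944013 to 19099350 per library, so a count of 0 allows up to 0.157 to 0.201 CPM (the count scaled to library size). That limit is 3 counts and covers counting error only. Fgf21 itself had 0, 2 and 1 counts in the shNC tumours and 0 in the 8 other libraries, so the knockdown could not be checked at this depth. In the sorted libraries macrophage markers summed to far more than T cell markers. Sums of different genes do not measure the share of cells or RNA of a type. The sorted libraries' 12 macrophage and monocyte markers summed to 11550, 13390 and 14040 CPM in shNC and to 17900 and 19270 CPM in shFgf21. Their 12 T cell markers summed to 631, 552 and 305.0 CPM in shNC and to 358.5 and 429.6 CPM in shFgf21, and the 6 NK cell markers to 74.0, 79.7 and 38.9 against 34.7 and 35.8 CPM. In the libraries labelled as tumour, T cell markers summed to 1.10 to 2.27 CPM, with 7 to 9 of the 12 at 0. Macrophage markers summed to 33.3 to 47.8 CPM there, and Ptprc, the leukocyte antigen CD45, was at 0 to 0.974 CPM against 262 to 304 CPM in sorted libraries. Over the 5 sorted libraries regulatory T cell markers summed to 70.7 to 118 CPM and B cell markers to 2.16 to 3.23 CPM. The sums there were 25.85 to 44.9 CPM for dendritic cells, 4.50 to 9.07 for mast cells and 14.4 to 32.3 CPM for endothelium. The fibroblast and mesenchymal markers summed to 11390 to 13580 CPM in sorted libraries and to 13260 to 16450 CPM in tumour libraries. These markers thus do not separate fibroblasts from MC38 cells, and the share of tumour cell RNA in sorted libraries was not tested. In the comparison of shFgf21 with shNC sorted libraries 11 of 12 macrophage markers had a fold change above 0 (median 0.54 on the log2 scale), 8 of 12 T cell markers one below 0 (median -0.42) and all 6 NK cell markers one below 0 (median -0.95). Of 5 neutrophil markers tested 4 were below 0 (median -2.29), as were both epithelial markers tested (median -1.15). The neutrophil sum was 76.8, 150.1 and 90.3 CPM in shNC libraries against 61.0 and 69.7 CPM, and the epithelial sum was 30.3, 33.35 and 43.4 against 18.5 and 16.4 CPM. No marker of the 11 lists passed the edgeR threshold in either knockdown comparison, with 21 of 63 tested at an unadjusted p under 0.05 in sorted and 4 of 24 in tumour libraries. Over all genes tested that share was 11.2% in sorted and 6.22% in tumour libraries. The part of these differences in the results below was not tested. In bulk samples fewer cells of a type and less RNA per cell cannot be told apart.

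All 10 genes were detected in every sorted library, and 6 of them were clearly present in tumour libraries. Levels of different genes are compared as FPKM, which the authors computed per gene length. In shNC sorted libraries Socs3 led at 203 ± 52.1 FPKM (SD, n = 3). Il2rg followed at 51.7 ± 6.15, Il2rb at 37.7 ± 12.6 and Il4ra at 30.7 ± 2.78 FPKM, and the libraries' range of Il2rb overlapped those of both Il2rg and Il4ra. Il7r was at 19.3 ± 1.97 FPKM, above Socs1 at 9.64 ± 2.26 and Il21r at 8.67 ± 0.967 FPKM, which did not differ beyond their spread. Il2ra, the alpha chain that makes the IL-2 receptor high-affinity, was at 4.23 ± 1.26 FPKM, Cish at 3.05 ± 0.557 and Il15ra, which presents IL-15 to neighbouring cells, at 1.11 ± 0.169 FPKM. Il2ra and Cish were likewise within each other's spread.

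In shNC tumour libraries the order was different. Socs3 again led at 93.3 ± 29.9 FPKM (SD, n = 3). Socs1 at 9.05 ± 1.66, Il2rg at 8.07 ± 1.17 and Il4ra at 5.45 ± 1.98 FPKM came next. The library ranges of neighbours overlapped, although Il2rg was above Il4ra in each of the 3 libraries. Il15ra was at 1.20 ± 0.447 and Cish at 0.585 ± 0.143 FPKM. Il2rb was at 0.155 ± 0.0985 FPKM, and Il2ra and Il7r were at 0.0201 and 0.0128 FPKM. Il21r had no count in any of the 6 tumour libraries.

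**Figure D1:**
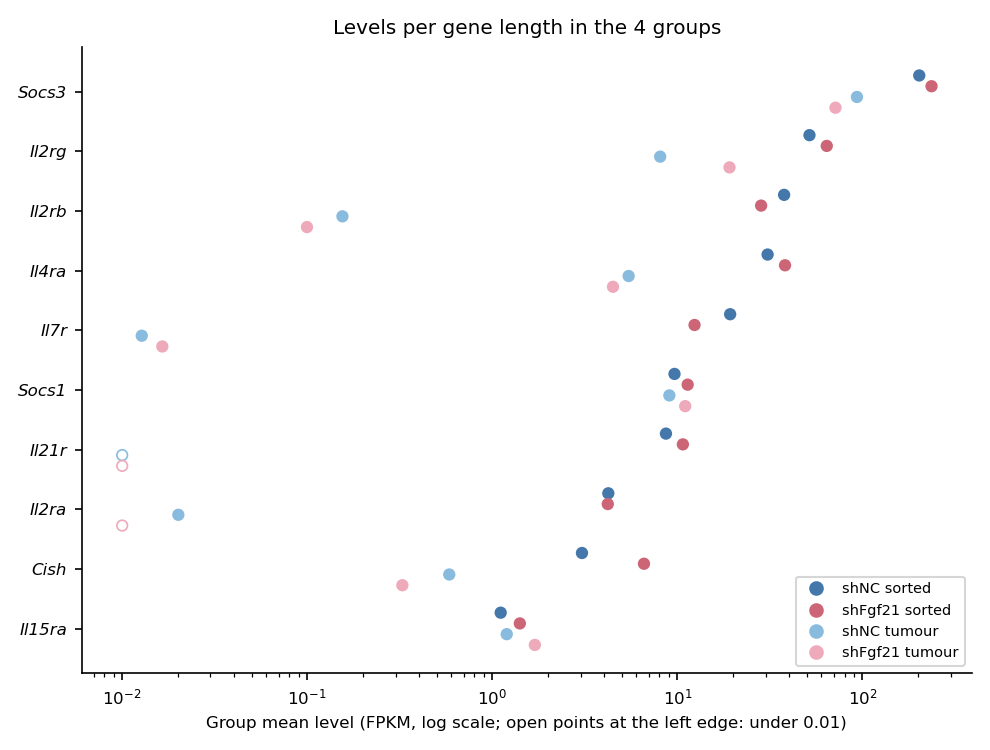
Group mean level of each gene in FPKM on a log axis, one colour per group, ordered by level in shNC sorted libraries, with open points at the left edge for means under 0.01 FPKM. Socs3 is highest in every group. The 4 group means of Socs1 lie close together, and so do, at a lower level, those of Il15ra. Il2rb, Il2ra, Il7r and Il21r are near the detection limit in tumour libraries.

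Il2rg, the signalling chain that all these receptors share (chromosome X, 101264378 to 101268255, mm10), was the member with the widest gap between shFgf21 and shNC tumours. Its level was 33.1, 23.7 and 26.3 CPM in shNC tumours and 72.8, 73.0 and 55.05 CPM in shFgf21 tumours. The lowest shFgf21 library was above the highest shNC library. The log2 fold change was 1.26 ± 0.18 (SE), which did not pass the threshold over all genes (edgeR quasi-likelihood adjusted p = 0.113), although it ranked 11 of 14950 genes by p. It passed under 4 of 7 alternatives, DESeq2 and limma voom among them (adjusted p = 1.79e-06 and 0.0421, range over the 7 up to 0.149). Another of the 4 was the block on title numbers, which pairs libraries by number alone. Il2rg passed under none of the 6 fits that left out a library (lowest edgeR adjusted p = 0.0588). The T cell marker sum was 2.27, 2.02 and 1.21 CPM in the same shNC tumours and 1.39, 1.12 and 1.10 CPM in the shFgf21 tumours. The macrophage marker sum was 47.8, 33.3 and 38.8 against 36.1, 40.4 and 34.25 CPM. Their part in the difference of Il2rg was not tested.

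In sorted libraries Il2rg was at 200.1, 216 and 169.5 CPM in the shNC libraries against 232 and 278 CPM in shFgf21, again without overlap. The log2 fold change was 0.36 ± 0.13 (edgeR adjusted p = 0.377). Divided by the count of each of the 12 macrophage markers in turn, Il2rg was lower in both shFgf21 libraries than in all shNC libraries for 2 markers, and the groups overlapped for 10. Divided by each of the 12 T cell markers, it was higher without overlap for 8 and overlapped for 4. The markers of a list are not independent of one another. By CPM alone the sorted groups did not overlap for 29.8% of all genes. The share of all genes whose ratios separate in this way was not computed, here or for the genes below.

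Il2rb, the chain shared by the IL-2 and IL-15 receptors, was at 250.4, 229 and 126 CPM in the shNC libraries against 159 and 159.9 CPM in shFgf21 sorted libraries. The groups overlapped, since shNC replicate 3 had the lowest level of all. The log2 fold change was -0.36 ± 0.26 (edgeR adjusted p = 0.653). The T cell and NK cell marker sums given above were also low in shNC replicate 3 and in both shFgf21 libraries. Divided by the count of each of the 12 T cell markers in turn, Il2rb was higher in both shFgf21 libraries than in all shNC libraries for 2 markers, lower for 4 and overlapping for 6. Against the 12 macrophage markers Il2rb was lower for 6 and overlapping for 6. Per count of the whole T cell list it was at 0.397, 0.415 and 0.412 in shNC and at 0.443 and 0.372 in shFgf21, so the shNC range lay inside that of shFgf21. Tumour libraries held 5 to 19 counts of Il2rb each.

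**Figure D2:**
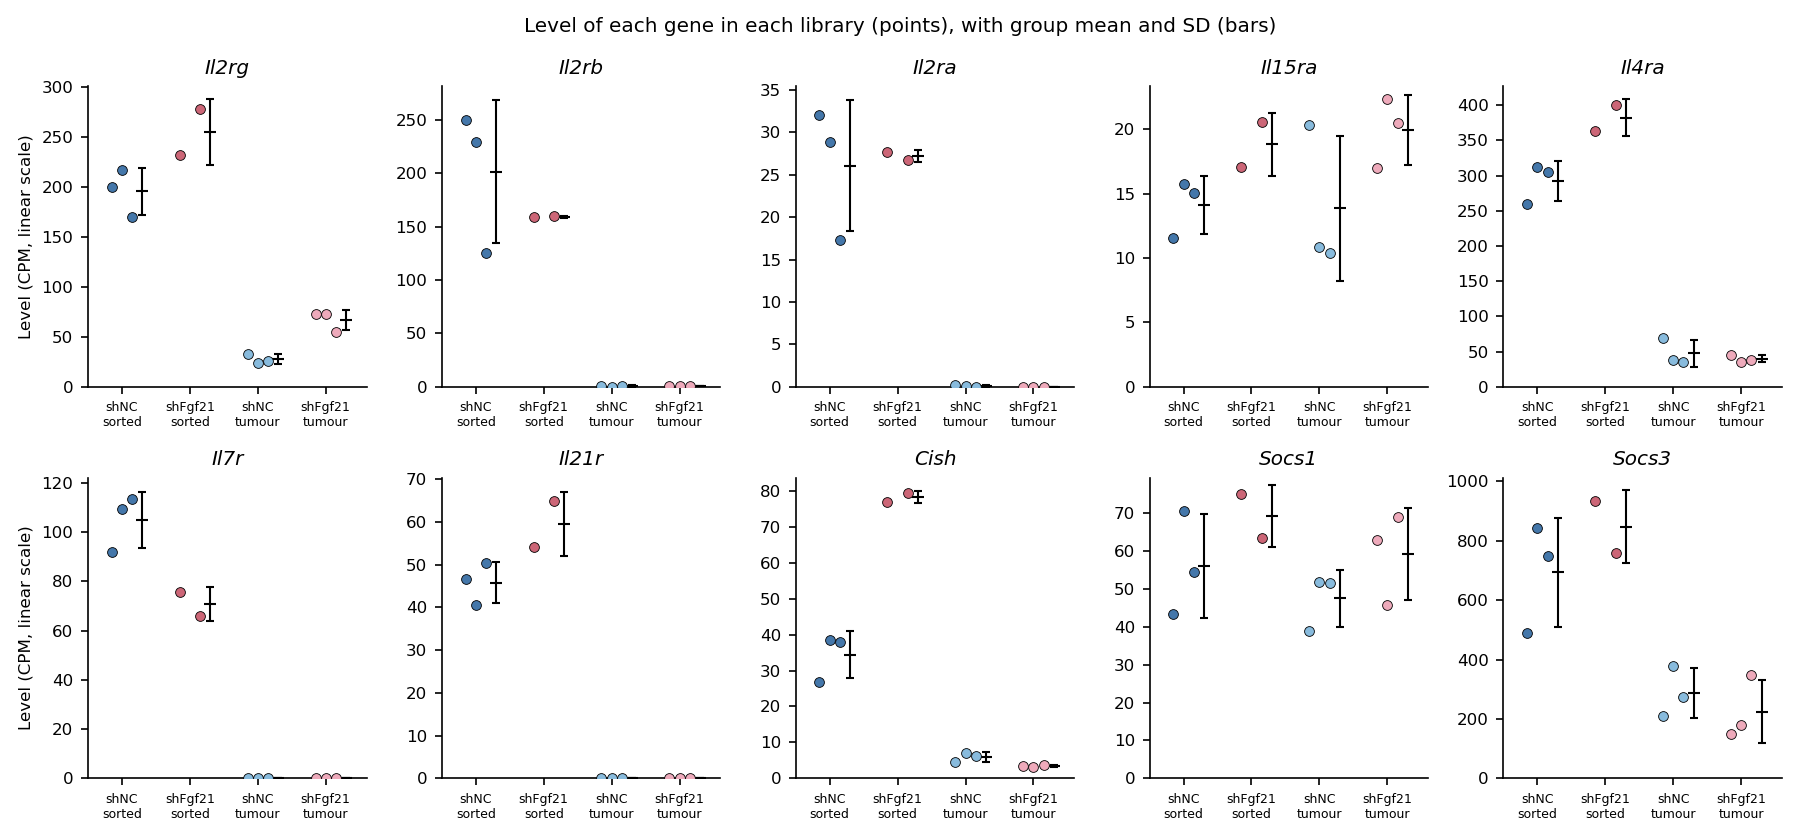
Level of each of the 10 genes in CPM on a linear axis, 1 panel per gene and 1 point per library in the 4 groups, with the group mean and SD as a bar beside the points. Cish at 77.1 and 79.4 CPM in shFgf21 sorted libraries and Il2rg at 55.05 to 73.0 CPM in shFgf21 tumours lie clear of their shNC libraries, while Il2rb and Il2ra spread widely among shNC sorted libraries.

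Il2ra, which is raised on activated and regulatory T cells, was at 32.0, 28.85 and 17.4 CPM in the shNC libraries against 27.7 and 26.75 CPM in shFgf21 sorted libraries. Both shFgf21 values fell inside the shNC range, and the log2 fold change was 0.044 ± 0.24 (edgeR adjusted p = 0.964). Without shNC replicate 3 it was -0.18. Divided by each of the 12 T cell markers in turn, Il2ra was higher without overlap in shFgf21 for 6 markers, lower for 2 and overlapping for 4, so its place depended on the marker. Against the 12 macrophage markers the groups overlapped for 12. Foxp3, the regulatory T cell factor, had a log2 fold change of 0.28 ± 0.13 in the same comparison (edgeR adjusted p = 0.485). Of the 4 regulatory T cell markers, Foxp3 among them, 3 lay above and 1 below 0 (median 0.17). Tumour libraries held 0 to 3 counts of Il2ra.

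Il7r, the IL-7 receptor alpha chain (chromosome 15, 9505788 to 9530176), was the only chain besides Il2rb with a lower mean in shFgf21 sorted libraries. Its level was 92.1, 109.4 and 114 CPM in shNC and 75.6 and 66.0 CPM in shFgf21, with no overlap. The log2 fold change was -0.59 ± 0.13, which did not pass (edgeR adjusted p = 0.207), while DESeq2 gave an adjusted p of 0.0118, the only 1 of 6 alternatives under which it passed (range up to 0.958). Il7r did not follow the T cell marker sum from library to library. It was highest in shNC replicate 3, where that sum was lowest. Divided by each T cell marker, Il7r was lower without overlap in shFgf21 for 4 of 12 and overlapped for 8. Against the 12 macrophage markers it was lower for 11 and overlapped for 1. Bcl2, a survival gene downstream of IL-7, was at 43.9, 34.8 and 37.0 CPM in the shNC libraries against 29.6 and 28.1 CPM in shFgf21 (-0.44 ± 0.13, edgeR adjusted p = 0.313). Of the 8 listed STAT5 target genes, which include Bcl2, 4 lay above and 4 below 0 in this comparison.

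Il4ra, the chain that receives IL-4 and IL-13, was the most abundant ligand-specific chain in sorted libraries. It was at 259.5, 313 and 305.5 CPM in the shNC libraries against 363 and 400.6 CPM in shFgf21, without overlap (log2 fold change 0.36 ± 0.11, edgeR adjusted p = 0.313). Divided by each of the 12 macrophage markers in turn, Il4ra was lower without overlap in shFgf21 for 6, higher for 1 and overlapping for 5. Against the 12 T cell markers it was higher for 4, lower for 0 and overlapping for 8, so its direction depended on the marker. In tumours Il4ra was at 68.7, 38.4 and 34.9 CPM in the shNC libraries against 45.1, 35.7 and 37.95 CPM in shFgf21. The groups overlapped there, and shNC tumour replicate 1 stood above all others. The log2 fold change was -0.27 ± 0.26 (edgeR adjusted p = 0.932), and without shNC replicate 1 it was 0.11.

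Il21r, the receptor for the follicular helper cytokine IL-21, was at 46.6, 40.65 and 50.3 CPM in the shNC libraries against 54.2 and 64.9 CPM in shFgf21 sorted libraries (log2 fold change 0.36 ± 0.13, edgeR adjusted p = 0.390). The groups did not overlap, but the gap between them was smaller than the range within either. Il15ra was at 11.5, 15.7 and 15.05 CPM in the shNC libraries against 17.1 and 20.5 CPM in shFgf21 sorted libraries (0.40 ± 0.18, edgeR adjusted p = 0.466). In tumours it was at 20.3, 10.8 and 10.4 CPM in the shNC libraries against 17.0, 22.3 and 20.45 CPM in shFgf21 (0.52 ± 0.28, edgeR adjusted p = 0.845). The tumour groups overlapped through shNC replicate 1.

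Cish, the first SOCS family gene and a feedback inhibitor known as a direct STAT5 target (chromosome 9, 107296026 to 107302784), had the largest difference of the 10 genes in sorted libraries. Its level was 26.9, 38.5 and 38.0 CPM in shNC and 77.1 and 79.4 CPM in shFgf21. Both shFgf21 libraries were far above the highest shNC library, and the log2 fold change was 1.16 ± 0.16. It ranked 23 of 16454 genes by p and did not pass (edgeR adjusted p = 0.0793). Of 6 alternatives it passed under DESeq2 alone (adjusted p = 5.3e-07, range up to 0.230), and of the 5 edgeR fits that left out a library it passed without shNC replicate 1 alone (log2 fold change 1.01, edgeR adjusted p = 0.0481, range up to 0.373). Divided by the count of each of the 12 macrophage and each of the 12 T cell markers in turn, Cish was higher in both shFgf21 libraries than in all shNC libraries for 12 and 12 of them. Its log2 fold change lay above those of all these markers, of which C1qa had the highest (0.88), so these counts add little to it. The part of the cell makeup in this difference was not tested.

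In tumours Cish lay on the other side. Its level was 4.55, 7.125 and 6.19 CPM in shNC and 3.355, 3.23 and 3.64 CPM in shFgf21, and the groups did not overlap. The log2 fold change was -0.81 ± 0.25 (edgeR adjusted p = 0.640), from 52 to 148 counts per library. The knockdown difference in sorted libraries minus that in tumours was 1.99 ± 0.27 on the log2 scale, which ranked 4 of 17327 genes and missed the threshold (edgeR adjusted p = 0.0566). Of 5 alternatives it passed under 2, DESeq2 (adjusted p = 2.2e-06) and no filter on low counts (edgeR adjusted p = 0.0470), with a range up to 0.110. Of the 11 edgeR fits that left out a library it passed in 1, without shNC tumour replicate 1 (2.15, edgeR adjusted p = 0.0205, range up to 0.380).

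The promoter window of Cish is printed because STAT5 acts on this gene directly, and that of Il2rg because it had the widest tumour difference. The windows come from RefSeq (GRCm38.p6) and run from 250 bases before to 50 after an annotated start site, here chr9:107296409-107296708 on the plus strand and chrX:101268206-101268505 on the minus strand. Capitals mark the STAT motif TTCNNNGAA, which reads the same on both strands.
Cish: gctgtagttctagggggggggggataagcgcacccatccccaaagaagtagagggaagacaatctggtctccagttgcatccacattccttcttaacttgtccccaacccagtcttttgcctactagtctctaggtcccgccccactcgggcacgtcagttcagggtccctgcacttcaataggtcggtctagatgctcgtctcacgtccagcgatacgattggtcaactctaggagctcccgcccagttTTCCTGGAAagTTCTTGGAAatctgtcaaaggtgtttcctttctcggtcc
Il2rg: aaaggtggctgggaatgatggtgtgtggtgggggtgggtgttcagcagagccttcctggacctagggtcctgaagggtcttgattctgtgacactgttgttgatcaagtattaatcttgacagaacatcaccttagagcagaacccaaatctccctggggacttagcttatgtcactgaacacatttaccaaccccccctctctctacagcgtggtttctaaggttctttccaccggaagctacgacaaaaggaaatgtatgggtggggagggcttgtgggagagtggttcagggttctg
Cish held the motif 2 times, as TTCCTGGAA at the start site (107296659) and as TTCTTGGAA 11 bases further on. The first base of the gene in the deposited table lies upstream of this window, so other start sites are not covered. Of the 10 windows found for 9 of the 10 genes, those of Il7r (TTCAGGGAA) and Socs3 (TTCTTAGAA) held the motif a single time, and 7 held none. Over all 32851 windows 8.3% held it at least once and 0.457% at least 2 times. A match describes these letters and does not show binding.

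Socs1, which blocks JAK kinases and is induced strongly by interferon gamma, was at 43.3, 70.5 and 54.5 CPM in the shNC libraries against 75.1 and 63.5 CPM in shFgf21 sorted libraries (log2 fold change 0.29 ± 0.20, edgeR adjusted p = 0.638). In tumours it was at 38.8, 51.9 and 51.7 CPM in the shNC libraries against 63.0, 45.65 and 69.0 CPM in shFgf21 (0.31 ± 0.19, edgeR adjusted p = 0.879). The groups overlapped in both kinds of sample. Socs3, the inhibitor that binds the gp130 receptor of IL-6, was at 489, 844 and 748 CPM in the shNC libraries against 935 and 760.3 CPM in shFgf21 sorted libraries (0.27 ± 0.22, edgeR adjusted p = 0.693). In tumours it was at 209, 378 and 275 CPM in the shNC libraries against 149.5, 179 and 346 CPM in shFgf21 (-0.36 ± 0.33, edgeR adjusted p = 0.931). Both genes were lowest in shNC sorted replicate 1 among sorted libraries, and the spread of Socs3 within groups was wide.

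**Figure D3:**
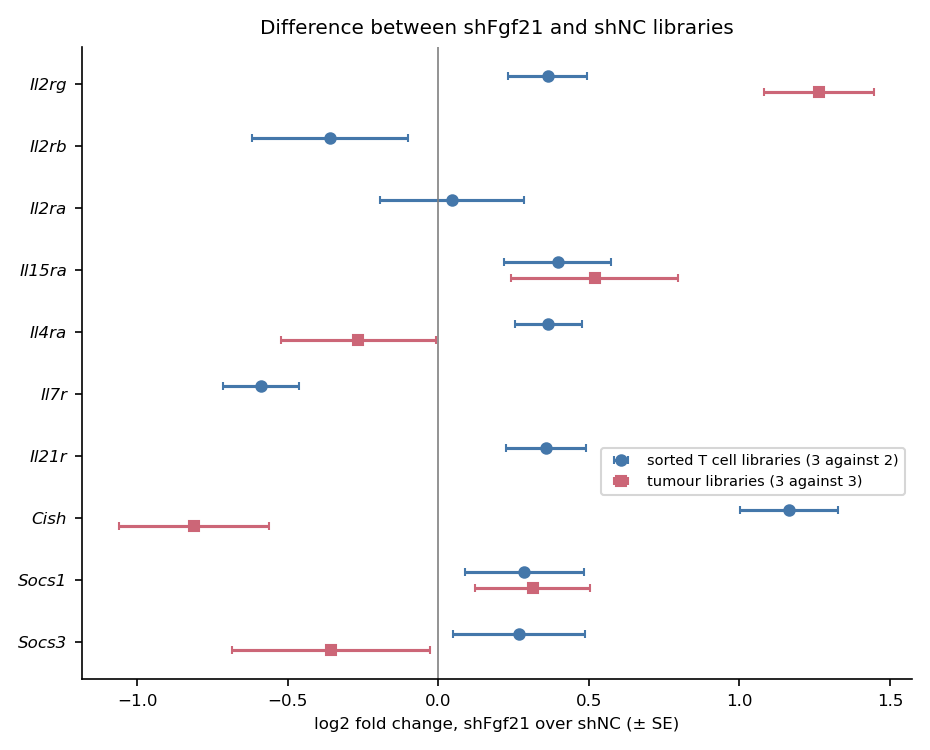
Log2 fold change of shFgf21 over shNC (points, with SE as bars) for each gene in sorted libraries (circles) and in tumour libraries (squares), with no square for the 4 genes not tested in tumours. Cish lies at 1.16 in sorted libraries and at -0.81 in tumours, and Il2rg at 0.36 and 1.26.

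None of the 10 genes passed the threshold in sorted libraries, where 0.079% of 16454 genes did (edgeR adjusted p under 0.05). At an unadjusted p under 0.05 there were 5 of 10, against 11.2% of all genes, and DESeq2 called 2, Cish and Il7r. For 8 of the 10 the fold change was above 0, with a median of 0.32 against -0.010 over all genes tested. The 2 groups did not overlap for 6 genes, which was so for 29.8% of all genes. In tumours 6 of the 10 genes had enough counts to be tested, a filter that kept Il2rb, Il2ra, Il7r and Il21r out. None of the 6 passed, where 0.0334% of 14950 genes did (edgeR), 2 had an unadjusted p under 0.05 against 6.22% of all genes, and DESeq2 called Il2rg. Their median was 0.024 against -0.0071 over all genes, and groups did not overlap for 2 of 6 against 11.8% of all genes. The difference between the kinds of sample passed for none of the 6 genes with counts in both, against 0.00577% of 17327 genes (edgeR). Of these 6, Il2rg and Cish had an unadjusted p under 0.05, against 4.77% of all genes, and DESeq2 called Cish. For Il2rg that difference was -0.89 ± 0.24 (edgeR adjusted p = 0.853).

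**Figure D4:**
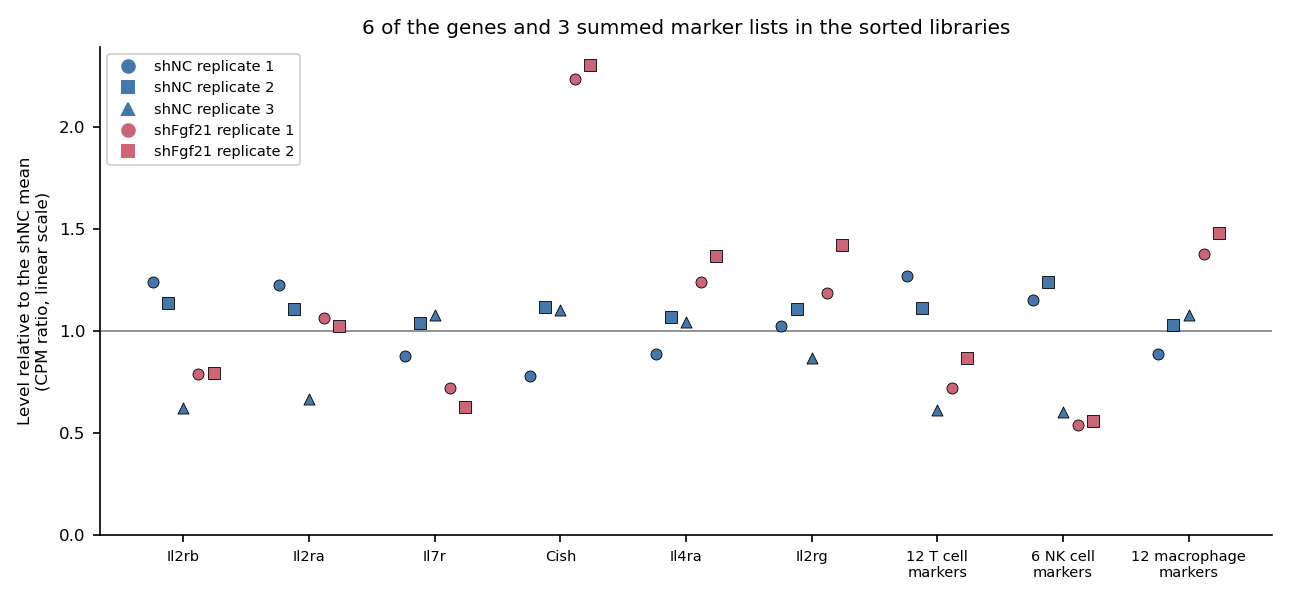
Level of 6 of the genes and summed level of 3 marker lists in each sorted library, each divided by its mean over the shNC libraries (linear axis, line at 1), with colours for the groups and symbols for the replicates. Il2rb and Il2ra are lowest in shNC replicate 3, as the T cell markers are, while Cish stands above all other items in both shFgf21 libraries.

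Between shNC sorted and shNC tumour libraries 8 of the 10 genes passed, all higher in sorted libraries, where 19.1% of 16104 genes were called in that direction (edgeR adjusted p under 0.05). Of the 8, Il2rb, Il2ra, Il7r and Il21r passed the filter on low counts only through the sorted libraries in which they were high, so their calls are no result. Of the other 6 genes 4 passed. The fold change was 2.82 ± 0.17 on the log2 scale for Il2rg, 2.63 ± 0.26 for Il4ra, 2.53 ± 0.22 for Cish and 1.27 ± 0.26 for Socs3 (edgeR adjusted p = 9.0e-06, 1.6e-04, 8.2e-05 and 0.00764). From pooled counts Il2rb was 279-fold higher (205 to 391, exact 95% counting interval) and 201 to 386-fold without 1 tumour library. Il2ra was 241-fold higher (110 to 658) from 3, 3 and 0 tumour counts, and 156 to 350-fold without 1 tumour library. Il7r was 1970-fold higher (672 to 9530), but its 3 tumour counts all came from replicate 1, and without replicate 2 or 6 the ratio was 1240 and 1270. These intervals cover counting error and not the spread between libraries. Il21r, with 2076 counts against 0, was at least 860-fold higher with the limit of 3 counts taken over the tumour group. Socs1 (0.24 ± 0.20) and Il15ra (0.032 ± 0.29) did not pass (edgeR adjusted p = 0.401 and 0.947). For Il15ra the sign rests on the scaling, since the means were 14.1 and 13.9 CPM with TMM factors but 13.55 and 14.6 CPM by library totals alone. Among the pathway lists described next, only genes that passed the filter in both kinds of sample were counted. Over all 16104 genes tested, without that restriction, 3078 were called higher and 1917 lower in sorted libraries (edgeR). The share over genes that passed the filter in both kinds was not computed. Called higher and lower in sorted libraries were 6 and 0 of 10 JAK and STAT genes, 1 and 1 of 5 other SOCS genes, 3 and 2 of 9 other regulators, 11 and 3 of 17 other receptors, 4 and 1 of 6 STAT5 targets and 0 and 0 of 3 cytokines (edgeR, 0 of the 3 cytokines at an unadjusted p under 0.05).

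The ligands of these receptors were at low levels. Of 7 cytokine genes, 4 were tested in sorted libraries and none passed (0 at an unadjusted p under 0.05). Il15 was at 11.4 to 15.2 CPM and Il7 at 6.68 to 8.14 CPM over the 5 sorted libraries, with log2 fold changes of -0.018 ± 0.17 and -0.083 ± 0.18. In tumours 4 were tested, none passed (0 at an unadjusted p under 0.05), and Il7 and Il15 were at 0.39 ± 0.30 and 0.21 ± 0.23.

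Of 11 JAK and STAT genes all were tested in sorted libraries and 9 had a fold change above 0, none past the threshold (median 0.086, 2 at an unadjusted p under 0.05). Stat4, the IL-12 transducer, was at -0.43 ± 0.29 and the kinase gene Tyk2 at 0.39 ± 0.21 (edgeR adjusted p = 0.632 and 0.547). Stat5a and Stat5b were at 0.093 ± 0.13 and 0.11 ± 0.11. In tumours 10 were tested and none passed (median -0.046, 3 at an unadjusted p under 0.05). Jak3, the kinase that binds the gamma chain, was there at 59.6, 69.7 and 62.7 CPM in the shNC libraries against 48.4, 39.6 and 49.4 CPM in shFgf21 (-0.49 ± 0.14, edgeR adjusted p = 0.598). Jak3 thus lay lower in the libraries in which Il2rg lay higher, and its groups did not overlap.

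Of the 5 other SOCS genes none passed in either kind of sample, with 1 at an unadjusted p under 0.05 in each (medians -0.16 and 0.048). In sorted libraries Socs6 was at 49.0, 15.6 and 49.6 CPM in the shNC libraries against 14.25 and 14.5 CPM in shFgf21 (-1.43 ± 0.45, edgeR adjusted p = 0.319), so shNC replicate 2 lay just above the shFgf21 libraries and far below the other shNC libraries. Socs2, which like Cish follows STAT5, was at 0.21 ± 0.17 (edgeR adjusted p = 0.692). In tumours, from 8 to 72 counts per library, Socs2 was at -1.29 ± 0.53 with overlapping groups (edgeR adjusted p = 0.782), and the difference between the kinds of sample was 1.505 ± 0.58 (edgeR adjusted p = 1). Of 8 listed STAT5 target genes 4 lay above and 4 below 0 in sorted libraries, none past the threshold (median -0.029, 1 at an unadjusted p under 0.05). Pim1, a survival kinase gene, was at 0.21 ± 0.11 and Pim2 at -0.46 ± 0.22 (edgeR adjusted p = 0.525 and 0.485). In tumours 6 of the 8 were tested and none passed (median 0.15, 1 at an unadjusted p under 0.05). There the cyclin gene Ccnd2 was at -0.41 ± 0.14 (edgeR adjusted p = 0.690).

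Among 31 other JAK-coupled receptor genes, 24 were tested in sorted libraries, 14 of them above 0, and none passed (median 0.089, 4 at an unadjusted p under 0.05). Il6ra, the IL-6 receptor alpha chain, was at 46.5, 52.6 and 52.7 CPM in the shNC libraries against 73.2 and 75.1 CPM in shFgf21 (0.53 ± 0.11, edgeR adjusted p = 0.178). Il12rb1, a chain of the IL-12 and IL-23 receptors, was at 0.53 ± 0.21 (edgeR adjusted p = 0.405). In tumours 17 were tested and none passed (median 0.0099, 3 at an unadjusted p under 0.05). Il6ra was there at 49.2, 34.4 and 42.5 CPM in the shNC libraries against 69.6, 61.9 and 55.45 CPM in shFgf21 (0.56 ± 0.17, edgeR adjusted p = 0.640). Of 9 phosphatase, PIAS and adaptor genes that restrain JAK-STAT signalling none passed in either comparison (medians -0.074 and -0.014, with 2 and 0 at an unadjusted p under 0.05), and Ptpn1 was at 0.30 ± 0.10 in sorted libraries (edgeR adjusted p = 0.323).

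Across all 11 libraries, with the mean of each kind of sample removed, the genes most like Il2rg among 8864 were Itgb7, an integrin gene, at r = 0.963, the chemokine gene Ccl2 at 0.946, Rfc5 at 0.944, Pop1 at 0.935 and mt-Te at 0.930. For Il4ra the closest was Lrrc47 (r = 0.951) and for Socs3 Zfp768 (r = 0.923). These values are Pearson's r of log2 CPM, and the libraries share depth and the knockdown grouping.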

How the data were processed

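The authors deposited raw counts per gene and FPKM values of the same libraries, per the file headers. Reads were mapped to mm10 (build taken from the submitters' processing notes), and the aligner, counting program and strandedness are not given here. The deposited FPKM equal count over a fixed length and library total (implied lengths differ by at most 0.000844% over 9655 genes) and served only to compare genes. Genes listed as overlapping a member had at most 43 counts over the sorted and 4 over the tumour libraries.

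Counts were analysed in R 4.3.3 with edgeR 4.0.16: filterByExpr, TMM, quasi-likelihood F-test, Benjamini-Hochberg over all genes tested, threshold 0.05. SE is the log2 fold change over the square root of F. Sorted and tumour libraries were fitted apart, and the difference of the knockdown effect in a fit of all 4 groups. CPM use TMM factors over the 11 libraries. The scripts were tested on simulated data, with no outcome quoted. Alternatives were median-ratio factors, other filters, DESeq2 1.42.0, limma 3.58.1 voom, all 4 groups in a single fit, title numbers as a block and leaving out each library. Alternatives for normalized values were not needed for counts. The members and the 6 pathway and 11 marker lists were chosen with earlier results of these data known. All members are named, and list genes past the threshold in a knockdown comparison or up to 4 per list with the largest fold change at a mean of at least 5 CPM. Likeness was ranked over genes with a mean of at least 10 CPM in each kind of sample (prior count 2), without predicted genes. Outside these rules Stat5a, Stat5b, Ptprc and, in tumours, Socs2 were named after their values were seen. The ratios to each marker, the pooled ratios without 1 library and the counts over genes that pass the filter in both kinds of sample were added after seeing the data. Some list genes that the rule names are not reported here.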

Additional observations from a re-analysis of the deposited data

Results flagged for a closer look

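Cish was singled out because both shFgf21 sorted libraries were above every shNC sorted library while all 3 shFgf21 tumour libraries were below every shNC tumour library. The knockdown difference in sorted libraries minus that in tumours was 1.99 on the log2 scale. The test of that difference gave an edgeR adjusted p of 0.0566 over all genes and did not pass, and the macrophage marker sum, which was also higher in the shFgf21 sorted libraries, was not tested as a cause.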

How the results depend on the processing

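Of the members' fold changes under the alternatives, 342 kept their direction and their side of the threshold, 10 came to pass it and 15 changed sign. In sorted libraries DESeq2 called 2 members (Cish and Il7r) and 232 genes, no filter on low counts 1 gene and a fit of all 4 groups 1 gene. Leaving out 1 library gave 0 to 1 members and 0 to 34 genes, and Il2ra ran from -0.18 to 0.22. In tumours DESeq2, limma voom, the fit of all 4 groups and the replicate block each called 1 member, Il2rg, with 115, 21, 26 and 131 genes in all, and a mean of at least 5 CPM left 1 gene. Leaving out 1 library gave 0 members and 0 to 8 genes there, and Il4ra ran from -0.43 to 0.11. For the difference between kinds of sample, no filter and DESeq2 called 1 member, Cish, and 4 and 32 genes in all, limma voom called 3 genes and a mean of at least 5 CPM none (0). Leaving out 1 library gave 0 to 1 members and 0 to 4 genes, Socs1 ran from -0.17 to 0.19 and Il15ra from -0.49 to 0.056, and Socs1 was at 0.000508 without a filter. Between shNC sorted and tumour libraries Il15ra ran from -0.14 to 0.42. The cause of these changes was not tested. Title numbers 1 and 2 occur in both tumour groups, and the deviations of same-numbered libraries correlated at 0.165 and -0.154, so the block pairs libraries by number alone. No paired analysis was possible in sorted libraries because each title joins several numbers and gives no replicate number. Numbers in sorted titles also recur in tumour titles, such as 1 and 3 for shFgf21 sorted replicate 1. The fits across kinds of sample treated all libraries as independent, and shared origin was not tested. The mean level of Il2rb in shFgf21 sorted libraries was 161.5 CPM with median-ratio factors and 146 CPM by totals alone, and the number of members with a higher mean in shNC sorted than in shNC tumour libraries was 10 with TMM and median-ratio factors and 9 by totals alone, where Il15ra changed sides.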
